A study of Mus musculus with 12 samples.

Results

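Ribosome biogenesis and nucleolar genes were followed in regulatory T cells (Treg) sorted from mouse spleen. The set held 43 genes, chosen by gene symbol with earlier results of these data known. Each gene was represented by its brightest probe set (by mean over the 12 arrays) among those that name that gene alone. In this way 42 of the 43 genes were measured, of 22180 genes with a probe set of their own on the array. Fbl, the methyltransferase of box C/D particles, was the exception, because its only probe set also names Tulp4.

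Ribosomes are built in the nucleolus. There RNA polymerase I transcribes the ribosomal DNA, small nucleolar ribonucleoproteins (snoRNPs) guide methylation and pseudouridylation of the precursor RNA, and separate sets of assembly factors fold and cut it into the small (40S) and large (60S) subunit. Growing and activated lymphocytes are known to raise this output, and the transcription factor Myc is a textbook regulator of many of the genes involved.

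Mice were DEREG animals, in which regulatory sequence of Foxp3 on a transgene drives a diphtheria toxin receptor, so that diphtheria toxin (DTx) removes cells that express Foxp3. All animals were sensitized to ovalbumin (OVA) and challenged with it to give allergic airways disease. The group called eTreg received human serum albumin (HSA) as a control protein and no DTx. The group called e_iTreg received intravenous immunoglobulin (IVIg) and no DTx, and the group called iTreg received IVIg after DTx had depleted the endogenous Treg. Each group had 4 biological replicates, 1 array each, with IVIg or HSA at 2 g/kg and DTx at 40 ng/g. The labels' growth protocol mentions the depletion in the same words for every sample, and the assignment of DTx used here is the one in the series design. A group with HSA and DTx was not analysed here, so IVIg and DTx cannot be told apart in iTreg against eTreg. The age of the mice, the gate of the sort and any pooling of animals are not given in the sources used here.

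Values are log2 expression per probe set, so a difference of 1 is a 2-fold change, and levels of different genes are not compared with each other because each probe set has its own brightness. A gene is called higher or lower here where the adjusted p of limma's moderated test (Benjamini-Hochberg over 23521 probe sets with 1 gene symbol) was under 0.05. Errors of means are SDs over 4 arrays and errors of differences are standard errors (SE) of the fit. The p-values speak only of the spread between these samples, and precision is limited by how few arrays there are. In bulk RNA of this kind, fewer cells of a type and less RNA per cell cannot be told apart.

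Array medians over all rows lay between 6.28 and 6.50. Correlations between arrays, over the probe sets with 1 gene symbol, lay between 0.966 and 0.993. The sorted cells carried the markers of Treg in all 3 groups. The Foxp3 level was 12.46 ± 0.09 (SD, n = 4) in eTreg, 12.30 ± 0.21 in e_iTreg and 12.17 ± 0.25 in iTreg, and neither it nor Il2ra (difference -0.12) or Cd4 (0.08) was called in iTreg minus eTreg. Of 15 measured cell cycle genes, 14 were higher in iTreg than in either other group. Their mean level lay between 7.33 and 9.05 in eTreg, 7.40 and 9.11 in e_iTreg, and 9.60 and 10.36 in iTreg. Mki67, a gene of proliferating cells, was higher by 2.41 ± 0.55 against eTreg (limma adjusted p = 0.0122). Mean levels of 9 B cell markers ran from 6.09 to 8.06 in eTreg, 6.14 to 7.93 in e_iTreg and 7.12 to 7.54 in iTreg, with none called. Mean levels of 10 myeloid markers were 6.63 to 7.18, 6.61 to 7.20 and 7.18 to 8.18 in the same order, with 2 of them, Itgam and Cst3, higher in iTreg. For 7 plasma cell markers they were 6.78 to 7.28, 7.01 to 7.32 and 7.33 to 8.97, with none called. All iTreg arrays thus lay above all others in this level, the lowest by a small margin. The part of these markers in the results on the ribosome biogenesis genes was not tested, except where a value without particular arrays is given.

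Promoter sequence was examined because CACGTG, the E-box bound by Myc and its partner Max, is a textbook motif for genes of this kind. RefSeq windows from 250 bases before to 50 bases after a gene's start (GRCm38.p6) were found for 37 of the 43 genes. CACGTG, which is its own reverse complement and so reads the same on both strands, was present in 7 of these 37 genes (18.9%), against 2187 of all 27025 genes with a window (8.09%). The 7 were Wdr43, Utp18, Utp20, Imp4, Pes1, Nop2 and Mybbp1a. None of the 4 genes called higher in iTreg than in eTreg held it, and 7 of the 33 uncalled genes with a window did. With a share of 18.9% in the set, 4 genes are too few to compare, and a link of the motif with the calls was not tested. Shown are the window of Nop2 (chr6:125131633-125131932, plus strand), the only one of the 7 with a positive difference from eTreg, that of Bysl (chr17:47611443-47611742, minus strand), the called gene with the smallest p, which lacks it, and that of Wdr43 (chr17:71615965-71616264, plus strand), a gene with a negative difference, chosen after its values were seen. Each runs 5′ to 3′ along the gene's own strand, and capitals mark CACGTG.
Nop2: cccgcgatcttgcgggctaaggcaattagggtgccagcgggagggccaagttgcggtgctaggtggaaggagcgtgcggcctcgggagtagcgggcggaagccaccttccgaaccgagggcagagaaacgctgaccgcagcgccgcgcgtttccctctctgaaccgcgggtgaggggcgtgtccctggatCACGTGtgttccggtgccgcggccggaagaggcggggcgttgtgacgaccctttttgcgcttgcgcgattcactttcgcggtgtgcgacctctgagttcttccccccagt
Bysl: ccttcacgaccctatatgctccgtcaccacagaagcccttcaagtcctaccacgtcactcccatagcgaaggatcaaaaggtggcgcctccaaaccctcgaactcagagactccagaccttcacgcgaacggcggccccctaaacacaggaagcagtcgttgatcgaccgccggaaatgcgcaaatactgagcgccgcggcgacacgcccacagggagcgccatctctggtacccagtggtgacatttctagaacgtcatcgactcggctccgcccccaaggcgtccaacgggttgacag
Wdr43: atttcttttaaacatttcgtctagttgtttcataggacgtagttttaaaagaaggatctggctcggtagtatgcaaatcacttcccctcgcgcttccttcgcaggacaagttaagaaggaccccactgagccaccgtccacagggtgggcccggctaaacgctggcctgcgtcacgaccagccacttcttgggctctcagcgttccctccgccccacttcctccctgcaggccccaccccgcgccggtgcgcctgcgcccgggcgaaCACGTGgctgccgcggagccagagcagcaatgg
In Nop2 the motif covers bases 191 to 196 of the window, before the start site, and in Wdr43 it covers bases 268 to 273, after it. A match describes these letters only, and the absence of a match says only that the letters are not in this window.

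**Figure D1:**
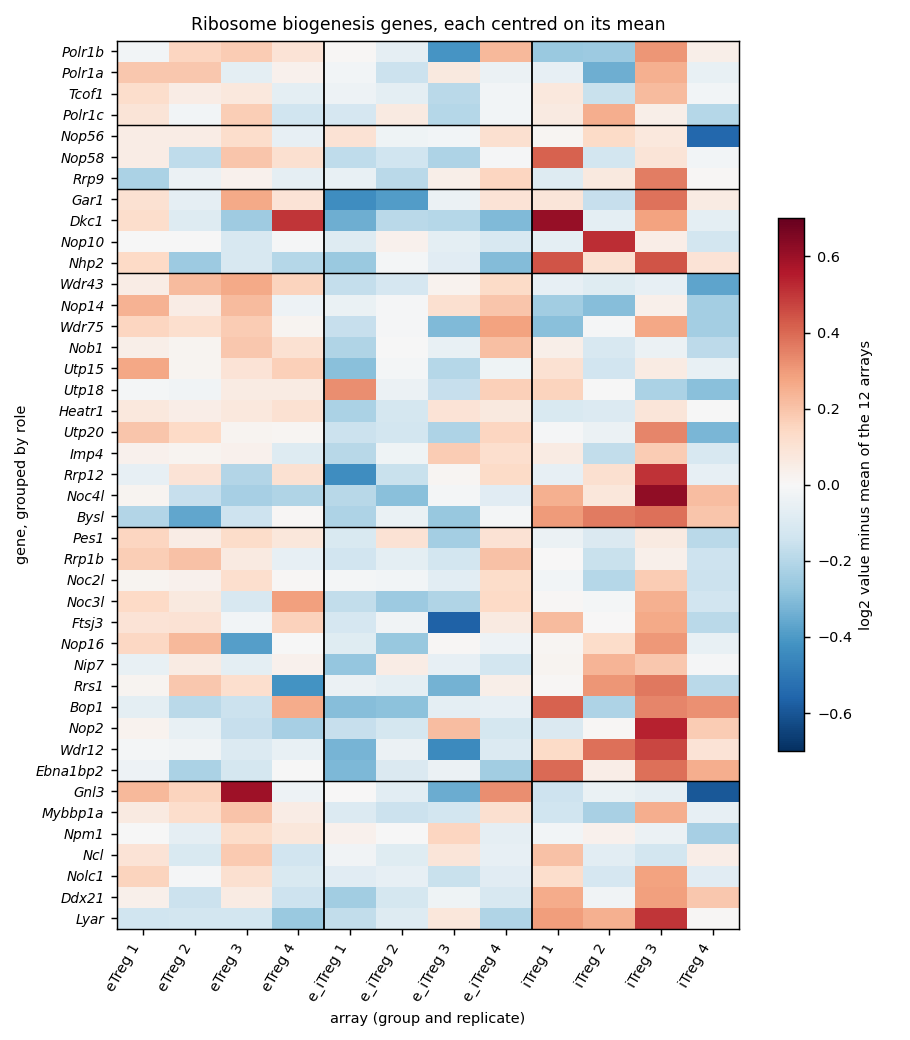
Log2 expression of the 42 measured ribosome biogenesis and nucleolar genes in the 12 arrays, shown as the difference from each gene's mean over all arrays (colour scale, log2) and ordered by role. Columns are the 4 replicates of eTreg, e_iTreg and iTreg. The array with the most genes at their lowest value of the 12 is e_iTreg replicate 1 (11 of 42), and iTreg replicate 3 is the array with the most genes at their highest value (21 of 42).

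Against eTreg, 4 of the 42 genes were higher in iTreg, a share near that of all probe sets, and the differences of the set were of mixed sign. Bysl and Noc4l of small subunit assembly, Ebna1bp2 of large subunit assembly and the nucleolar regulator Lyar were higher by 0.37 to 0.49 on the log2 scale, that is 1.29 to 1.4-fold. None of the 42 genes was called lower. The 4 called genes are 9.52% of those measured, and 9.99% of all 23521 probe sets were called in this comparison, 5.36% higher and 4.63% lower. Among probe sets with a mean of at least 6, a level that all 42 genes exceed, 15.1% were called, 8.09% higher and 7.04% lower. The iTreg arrays of 5 genes lay above all eTreg arrays, as in 6.9% of all probe sets, and those of 2 genes, Wdr43 and Gnl3, lay below them, as in 7.82% of all probe sets. An unadjusted p under 0.05 was reached by 10 of the 42 genes and 21.7% of all probe sets. Of the 42 differences 20 were positive and 22 negative, with a median of -0.01. The median over all probe sets tested was also -0.01, and over those with a mean of at least 6 it was -0.02. Where each array was centred on its median, the medians of the 42 genes and of all probe sets were 0.02 and 0.01. The 42 differences ranged from -0.45 for Gnl3 to 0.49 for Bysl.

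Against e_iTreg, 6 genes were higher in iTreg and none lower, 14.3% of the 42, where 11.2% of all probe sets were called, 6.49% higher and 4.75% lower. Among probe sets with a mean of at least 6, 16.5% were called, 9.94% higher and 6.58% lower. The iTreg arrays of 7 genes lay above all e_iTreg arrays, as in 7.57% of all probe sets, and 11 genes and 26.3% of all probe sets had an unadjusted p under 0.05. The 6 were the same 4 genes, Bysl, Noc4l, Ebna1bp2 and Lyar, together with Wdr12 of the PeBoW complex and Nhp2 of the box H/ACA particles. Both comparisons use the same iTreg arrays. Here 29 differences were positive and 13 negative, and their median was 0.12. That of all probe sets was -0.07, and that of probe sets with a mean of at least 6 was -0.06. Centring each array on its median made 36 of the 42 positive (median 0.21), and the median over all probe sets became 0.02. After quantile normalization 27 were positive (median 0.09), with a median of -0.02 over all probe sets. The range ran from -0.25 for Nop14 to 0.50 for Wdr12.

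Between the groups without DTx none of the 42 genes was called in e_iTreg minus eTreg by limma, where 0 of 23521 probe sets were called, and the smallest adjusted p among the genes was 0.704. Of the 42, 1 gene, Utp15, had an unadjusted p under 0.05, while 7.01% of all probe sets did. Its e_iTreg arrays all lay below the eTreg arrays, as in 1.66% of all probe sets, and no gene had e_iTreg arrays all above eTreg, as 2.63% of probe sets had. The signs leaned one way all the same. In e_iTreg 34 genes had a negative and 8 a positive difference, with a median of -0.10 and a range from -0.33 for Dkc1 to 0.07 for Lyar. The median was 0.03 over all probe sets and 0.005 over those with a mean of at least 6. Quantile normalization gave a median of -0.07 and median centring -0.17, where the medians over all probe sets were 0.02 and -0.03. The e_iTreg arrays were unlike each other in this: relative to each gene's own mean, the median of the 42 genes was -0.15 in e_iTreg replicate 1, -0.07 in replicates 2 and 3 and 0.02 in replicate 4, against 0.01 to 0.07 in the eTreg arrays.

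**Figure D2:**
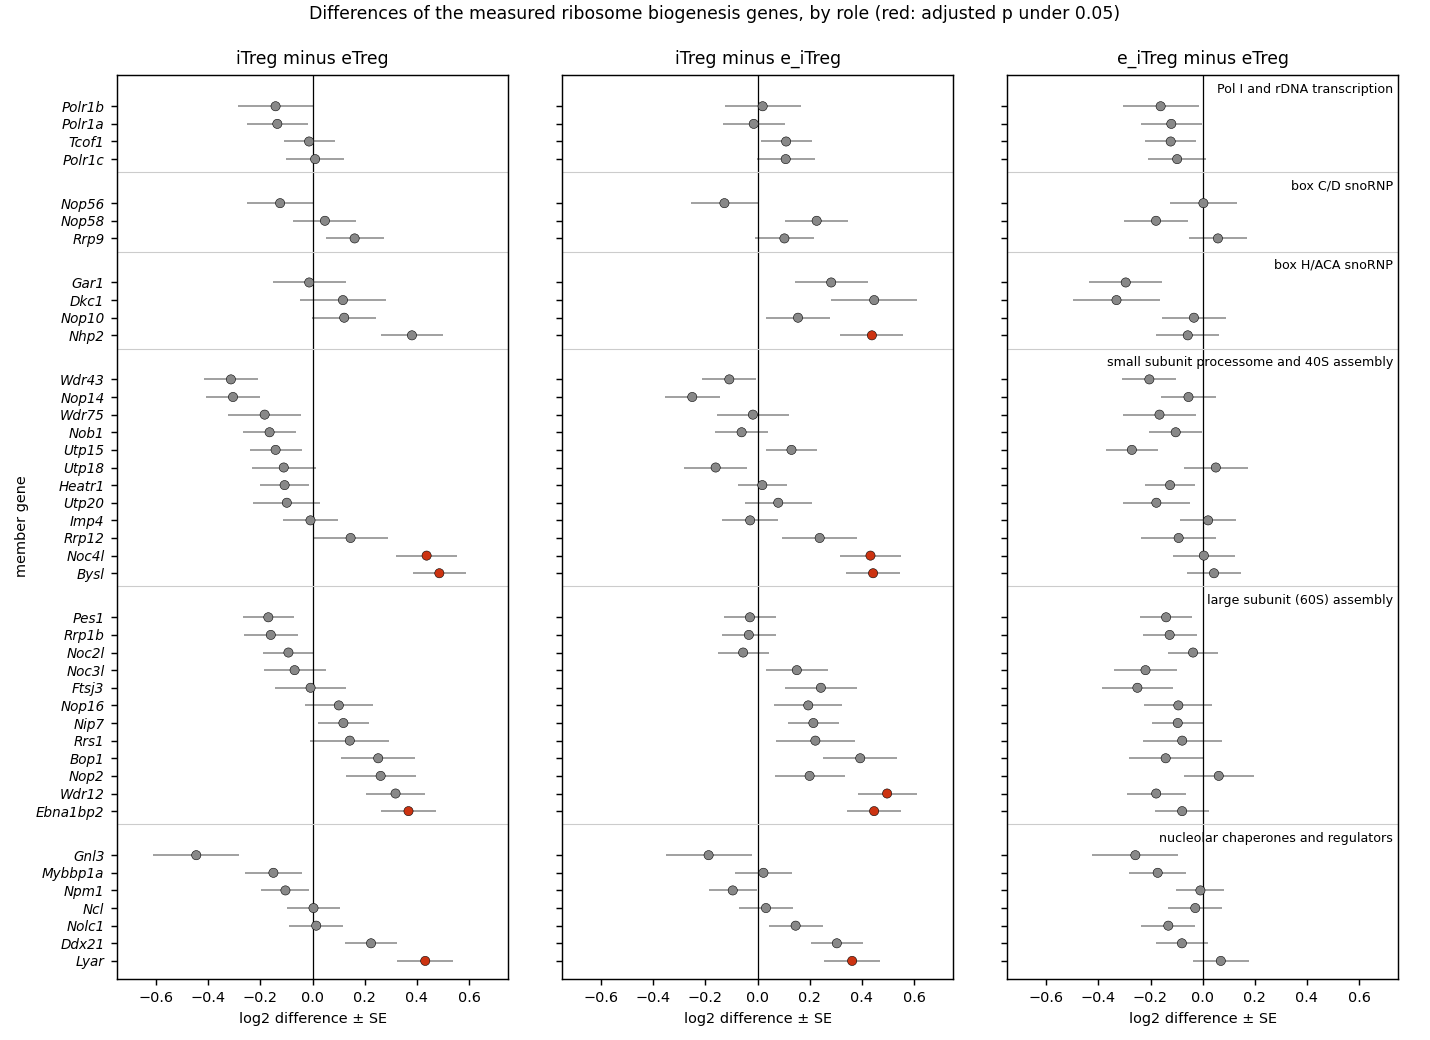
Log2 difference of each of the 42 measured genes in the 3 comparisons, as points with bars of 1 SE from the limma fit, ordered by role. Red points are genes with an adjusted p under 0.05: 4 in iTreg minus eTreg, 6 in iTreg minus e_iTreg and none in e_iTreg minus eTreg, all of them to the right of 0.

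The genes of ribosomal DNA transcription did not pass the test in any comparison. Polr1a and Polr1b encode the large catalytic subunits of RNA polymerase I, Polr1c a subunit shared with RNA polymerase III, and Tcof1 the nucleolar protein treacle that supports the transcription of ribosomal DNA. Their median difference was -0.07 in iTreg minus eTreg, 0.06 in iTreg minus e_iTreg and -0.12 in e_iTreg minus eTreg, and none had an unadjusted p under 0.05. Polr1a read 8.66, 8.66, 8.40 and 8.50 in eTreg, 8.45, 8.32, 8.54 and 8.43 in e_iTreg, and 8.41, 8.13, 8.72 and 8.42 in iTreg. The iTreg arrays hold both the lowest and the highest value of the 12, and all groups overlap. The difference from eTreg was -0.14 ± 0.12 (SE, limma adjusted p = 0.599). Polr1b read 7.84, 8.01, 8.04 and 7.96 in eTreg, 7.87, 7.80, 7.45 and 8.09 in e_iTreg, and 7.60, 7.61, 8.17 and 7.90 in iTreg. Its eTreg arrays had an SD of 0.09, those of e_iTreg and iTreg 0.27 each, the groups overlap, and iTreg minus eTreg came to -0.14 ± 0.15. Polr1c had the least evidence of a difference in this group of genes, its eTreg mean being 8.95 ± 0.14, its e_iTreg mean 8.85 ± 0.11 and its iTreg mean 8.96 ± 0.19. Its iTreg arrays (8.98, 9.17, 8.96 and 8.72) lie across the whole of the eTreg arrays (9.01, 8.90, 9.09 and 8.78) and of e_iTreg (8.80, 8.98, 8.72 and 8.90). Tcof1 differed by -0.01 ± 0.10 between iTreg and eTreg.

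The box C/D particles, which guide 2′-O-methylation of ribosomal RNA, did not pass either, and none of the 3 measured proteins had an unadjusted p under 0.05. Nop56 and Nop58 are their paired core proteins, and Rrp9 is the U3 snoRNA-binding protein of early processing. Rrp9 stood at 8.41, 8.59, 8.66 and 8.57 in eTreg, 8.58, 8.44, 8.67 and 8.78 in e_iTreg, and 8.54, 8.70, 8.99 and 8.64 in iTreg. Only iTreg replicate 3 exceeds all arrays of the other groups, and the difference from eTreg was 0.16 ± 0.11 (limma adjusted p = 0.475). Nop56 read 10.67, 10.67, 10.74 and 10.56 in eTreg, 10.72, 10.59, 10.60 and 10.73 in e_iTreg, and 10.63, 10.75, 10.69 and 10.07 in iTreg. Replicate 4 of iTreg is alone below every other array, and the difference from eTreg was -0.12 ± 0.13 (limma adjusted p = 0.678). Nop58 was at 9.22, 8.99, 9.36 and 9.28 in eTreg, 8.99, 9.03, 8.95 and 9.16 in e_iTreg, and 9.58, 9.04, 9.26 and 9.15 in iTreg, and the groups overlap. Its differences were 0.05 ± 0.12 from eTreg and 0.23 ± 0.12 from e_iTreg (limma adjusted p = 0.249).

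The box H/ACA particles guide pseudouridylation and also stabilise telomerase RNA. Of their 4 core proteins, Nhp2 was higher in iTreg than in e_iTreg, and the pseudouridine synthase Dkc1 and its partners Gar1 and Nop10 were not called. Nhp2 read 8.76, 8.37, 8.51 and 8.42 in eTreg, 8.36, 8.61, 8.54 and 8.32 in e_iTreg, and 9.06, 8.73, 9.06 and 8.72 in iTreg. All iTreg arrays lie above all e_iTreg arrays, and 1 eTreg array reaches into the iTreg range. The difference was 0.44 ± 0.12 from e_iTreg (limma adjusted p = 0.0301) and 0.38 ± 0.12 from eTreg (0.0606, not called). Among probe sets with a mean of at least 6 alone, the adjusted p against eTreg was 0.0381. The call against e_iTreg was lost in 4 of the 12 fits that left out 1 array each, with adjusted p up to 0.0908. Dkc1 read 8.34, 8.13, 7.97 and 8.72 in eTreg, 7.88, 8.03, 8.02 and 7.91 in e_iTreg, and 8.83, 8.15, 8.50 and 8.15 in iTreg. Its iTreg and e_iTreg arrays do not overlap, but eTreg and iTreg have SDs of 0.32, the widest of the 42 genes, and the difference of 0.45 ± 0.17 from e_iTreg was not called (limma adjusted p = 0.101, 95% confidence interval 0.09 to 0.80). Gar1 was low in 2 arrays, e_iTreg replicates 1 and 2, at 7.49 and 7.53. Its other arrays were at 7.88 and 8.02 in e_iTreg, 8.03, 7.86, 8.19 and 8.02 in eTreg, and 8.01, 7.76, 8.30 and 7.98 in iTreg, and the difference between iTreg and eTreg was -0.01 ± 0.14. Nop10 lay between 9.66 and 9.77 in eTreg (9.77, 9.77, 9.66 and 9.76), at 9.68, 9.80, 9.70 and 9.66 in e_iTreg, and at 9.70, 10.29, 9.82 and 9.64 in iTreg. Replicate 2 of iTreg stands above all other arrays, and the difference from eTreg was 0.12 ± 0.12 (limma adjusted p = 0.670). All 4 differences of the box H/ACA proteins were positive in iTreg minus e_iTreg (median 0.36) and negative in e_iTreg minus eTreg (median -0.18). The e_iTreg arrays enter both differences.

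Small subunit assembly gave 2 of the 4 genes that were higher in iTreg than in eTreg, next to a majority of negative differences. The 2 are 16.7% of its genes. In this comparison 9.99% of all probe sets and 15.1% of those with a mean of at least 6 were called. Among the 12 small subunit genes 3 differences were positive and 9 negative in iTreg minus eTreg, with a median of -0.11. The 2 called genes were also called against e_iTreg. Bysl encodes bystin, a factor of late 40S maturation. It read 7.53, 7.37, 7.59 and 7.74 in eTreg, 7.52, 7.69, 7.47 and 7.72 in e_iTreg, and 8.03, 8.10, 8.12 and 7.93 in iTreg. Every iTreg array is above every array of the other groups. Bysl was higher in iTreg by 0.49 ± 0.10 against eTreg (limma adjusted p = 0.00729) and by 0.44 ± 0.10 against e_iTreg (limma adjusted p = 0.0122), and differed by 0.04 ± 0.10 between the groups without DTx. Both calls held in each of the 12 fits that left out 1 array, with adjusted p up to 0.0300 and 0.0410.

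Noc4l, whose product forms a complex with Nop14 in the nucleolus, read 8.41, 8.23, 8.16 and 8.18 in eTreg, 8.20, 8.10, 8.38 and 8.31 in e_iTreg, and 8.64, 8.47, 9.01 and 8.61 in iTreg. Its iTreg arrays lie above all others, with replicate 3 highest. Noc4l was higher by 0.44 ± 0.12 against eTreg (limma adjusted p = 0.0287) and by 0.43 ± 0.12 against e_iTreg (limma adjusted p = 0.0290). Leaving out 1 array ended the call in 5 of 12 fits in each comparison, with adjusted p up to 0.0867 and 0.0809. Nop14, the known partner of Noc4l, went the other way in sign, with 9.25 ± 0.15 in iTreg and 9.55 ± 0.14 in eTreg, a difference of -0.31 ± 0.11 that was not called (limma adjusted p = 0.0881). Without iTreg replicate 3 Nop14 was called lower against eTreg (adjusted p = 0.0429).

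Wdr43, Utp15 and Heatr1 belong to the t-UTP part of the small subunit processome, which binds the precursor RNA as it is made. Wdr43 stood at 9.61, 9.78, 9.82 and 9.71 in eTreg, 9.39, 9.44, 9.58 and 9.69 in e_iTreg, and 9.50, 9.47, 9.50 and 9.19 in iTreg. All iTreg arrays are below all eTreg arrays, but the difference of -0.31 ± 0.10 was not called (limma adjusted p = 0.0744), although with the test run only on probe sets with a mean of at least 6 it was called lower (0.0449). Utp15 was the only gene whose e_iTreg arrays all lay below the eTreg arrays, with 8.17 ± 0.14 against 8.44 ± 0.10, a difference of -0.27 ± 0.10 (limma adjusted p = 0.704). Heatr1 differed by -0.11 ± 0.09 between iTreg and eTreg, and Wdr75 by -0.18 ± 0.14. Imp4, a protein of the U3 particle, had the largest p of the small subunit genes, at 9.61, 9.60, 9.61 and 9.49 in eTreg, 9.39, 9.55, 9.76 and 9.70 in e_iTreg, and 9.64, 9.41, 9.76 and 9.47 in iTreg. Its groups overlap throughout, and iTreg minus eTreg was -0.01 ± 0.11. The processome proteins Utp18 and Utp20, the endonuclease Nob1 that makes the final cut of 18S ribosomal RNA, and the export factor Rrp12 had differences from eTreg between -0.16 and 0.15, none called.

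**Figure D3:**
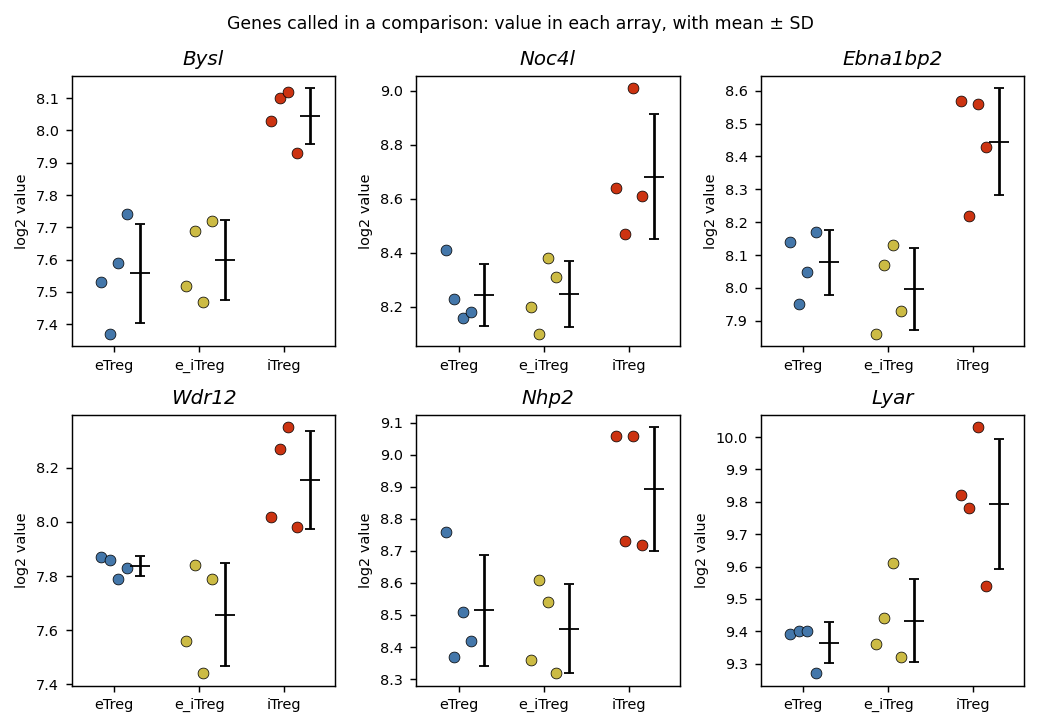
Log2 expression of the 6 genes called higher in iTreg in at least 1 comparison (Bysl, Lyar, Noc4l, Ebna1bp2, Nhp2 and Wdr12), with 1 point per array and bars for the mean ± SD of 4 arrays. The iTreg arrays of Bysl, Noc4l, Ebna1bp2 and Wdr12 lie above all arrays of both other groups, while 1 eTreg array of Nhp2 and 1 e_iTreg array of Lyar reach into the iTreg range.

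Large subunit assembly gave 1 gene called against eTreg and 2 against e_iTreg, 8.33% and 16.7% of its genes. Over all probe sets 9.99% and 11.2% were called, and 15.1% and 16.5% of those with a mean of at least 6. Ebna1bp2 encodes a nucleolar protein needed for the 27S precursor of the 60S subunit. Its values were 8.14, 7.95, 8.05 and 8.17 in eTreg, 7.86, 8.07, 8.13 and 7.93 in e_iTreg, and 8.57, 8.22, 8.56 and 8.43 in iTreg. The iTreg arrays are above all others, the lowest of them, replicate 2, by a small margin. Ebna1bp2 was higher by 0.37 ± 0.10 against eTreg (limma adjusted p = 0.0360) and by 0.45 ± 0.10 against e_iTreg (limma adjusted p = 0.0129). Leaving out 1 array ended the first call in 7 of 12 fits (limma adjusted p up to 0.114) and the second in none.

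Wdr12 encodes a member of the PeBoW complex, which also holds Pes1 and Bop1 and acts in the processing of the large subunit RNAs. It read 7.87, 7.86, 7.79 and 7.83 in eTreg, 7.56, 7.84, 7.44 and 7.79 in e_iTreg, and 8.02, 8.27, 8.35 and 7.98 in iTreg. The iTreg arrays lie above all arrays of both groups, and the eTreg arrays are the most tightly grouped (SD 0.04). Wdr12 was higher by 0.50 ± 0.11 against e_iTreg (limma adjusted p = 0.0115), a call that every fit without 1 array kept (adjusted p up to 0.0393). Against eTreg the difference was 0.32 ± 0.11 and was not called (limma adjusted p = 0.0985). The other members of the complex were not called: Bop1 differed by 0.39 ± 0.14 from e_iTreg (limma adjusted p = 0.0918) and by 0.25 ± 0.14 from eTreg, and Pes1 by -0.03 ± 0.10 and -0.17 ± 0.10. Without iTreg replicate 2, which read 9.31 where the other iTreg arrays read 9.85 to 9.94, Bop1 was called higher against e_iTreg (difference 0.54, limma adjusted p = 0.0118).

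Of the remaining large subunit genes none was called. Ftsj3, a methyltransferase of the precursor RNA, read 8.50, 8.51, 8.39 and 8.57 in eTreg, 8.29, 8.38, 7.84 and 8.47 in e_iTreg, and 8.63, 8.41, 8.67 and 8.22 in iTreg. Its lowest array is e_iTreg replicate 3, the groups overlap, and iTreg minus eTreg was -0.01 ± 0.14. The RNA methyltransferase Nop2 differed by 0.26 ± 0.13 from eTreg, and the assembly factor Nip7 by 0.12 ± 0.10. Rrs1, Rrp1b, Nop16 and the export factors Noc2l and Noc3l lay between -0.16 and 0.14 against eTreg. Over the 12 large subunit genes the median difference was 0.11 in iTreg minus eTreg, 0.21 in iTreg minus e_iTreg and -0.11 in e_iTreg minus eTreg.

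Among the nucleolar chaperones and regulators, Lyar was higher in iTreg than in either other group, and nucleolin and nucleophosmin were not called. Lyar encodes a zinc finger protein of the nucleolus that is known to promote the processing of ribosomal RNA in growing cells. It read 9.39, 9.40, 9.40 and 9.27 in eTreg, 9.36, 9.44, 9.61 and 9.32 in e_iTreg, and 9.82, 9.78, 10.03 and 9.54 in iTreg. All iTreg arrays exceed all eTreg arrays, while e_iTreg replicate 3 exceeds iTreg replicate 4. Lyar was higher by 0.43 ± 0.11 against eTreg (limma adjusted p = 0.0197) and by 0.36 ± 0.11 against e_iTreg (limma adjusted p = 0.0437), and leaving out 1 array ended the first call in 3 of 12 fits (adjusted p up to 0.0618) and the second in 10. Those 10 include every fit without an eTreg array, where the difference from e_iTreg stayed at 0.36 and the limma adjusted p was 0.0509 to 0.0590. The call against e_iTreg was also lost after quantile normalization (limma adjusted p = 0.0890).

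Gnl3 encodes nucleostemin, a nucleolar GTPase known from stem cells and proliferating cells. Its values were 10.02, 9.95, 10.39 and 9.76 in eTreg, 9.80, 9.72, 9.45 and 10.12 in e_iTreg, and 9.65, 9.75, 9.73 and 9.20 in iTreg. All iTreg arrays lie below all eTreg arrays, the closest being eTreg replicate 4 and iTreg replicate 2, and iTreg replicate 4 is lowest. The difference of -0.45 from eTreg, the most negative of the 42 genes, was not called (limma adjusted p = 0.114, 95% confidence interval -0.80 to -0.09). Ncl, nucleolin, read 11.27, 11.07, 11.36 and 11.04 in eTreg, 11.15, 11.09, 11.26 and 11.12 in e_iTreg, and 11.38, 11.10, 11.05 and 11.22 in iTreg. The groups cover nearly the same range, and the difference from eTreg was 0.00 ± 0.10, with a 95% confidence interval of -0.22 to 0.22. Npm1, nucleophosmin, stood at 12.88 ± 0.08, 12.87 ± 0.09 and 12.77 ± 0.12 in eTreg, e_iTreg and iTreg, and it has near-identical copies elsewhere in the genome whose transcripts its probes may not separate. The RNA helicase Ddx21 read 9.74, 9.55, 9.76 and 9.56 in eTreg, 9.46, 9.58, 9.67 and 9.59 in e_iTreg, and 9.96, 9.68, 9.99 and 9.89 in iTreg. Its iTreg arrays are above all e_iTreg arrays, and the difference of 0.30 ± 0.10 was not called (limma adjusted p = 0.0618). It was called with each array centred on its median (0.0185) or with only probe sets of a mean of at least 6 (0.0376). The Myb-binding protein Mybbp1a and the chaperone Nolc1 differed from eTreg by -0.15 ± 0.11 and 0.01 ± 0.10.

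For genes that were not called, the intervals bound how large a difference the arrays allow. Of the 38 uncalled genes in iTreg minus eTreg, 36 had a 95% confidence interval within 1.5-fold in both directions, and the same held for 34 of 36 in iTreg minus e_iTreg and 39 of 42 in e_iTreg minus eTreg. All of them stayed within 2-fold. The intervals that reached farthest were those of Gnl3 against eTreg (to -0.80) and of Dkc1 against e_iTreg (to 0.80).

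**Figure D4:**
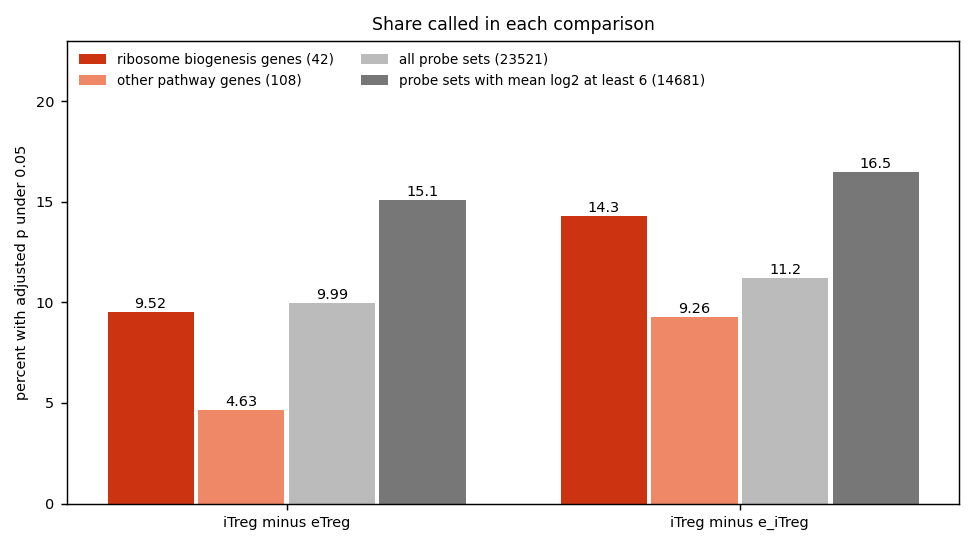
Percentage of features with a limma adjusted p under 0.05 in the comparisons of iTreg with eTreg and with e_iTreg (bars, from 0), for the 42 ribosome biogenesis and nucleolar genes, the 108 other pathway genes, all 23521 probe sets and the 14681 with a mean log2 value of at least 6. The bars of the 42 genes stand at 9.52% and 14.3%, between those of the other pathway genes (4.63% and 9.26%) and those of the brighter probe sets (15.1% and 16.5%).

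The rest of the pathway was read from a list of 114 further genes, of which 108 were measured. In iTreg minus eTreg 4 of them were higher and 1 lower (4.63%). Without iTreg replicate 3 this became 2 higher and 5 lower, with 3 genes called both times, where 8.04% of all probe sets were called. In iTreg minus e_iTreg 9 were higher and 1 lower (9.26%). Over all probe sets 9.99% and 11.2% were called in these comparisons. None of the 108 was called in e_iTreg minus eTreg, where 7 had an unadjusted p under 0.05, as had 7.01% of all probe sets. There 86 of 108 differences were negative (median -0.09, against 0.03 over all probe sets and 0.005 over those with a mean of at least 6). Pih1d1, a subunit of the R2TP chaperone complex that assembles box C/D particles, read 8.50, 8.55, 8.29 and 8.17 in eTreg, 8.43, 8.48, 8.58 and 8.39 in e_iTreg, and 8.98, 8.97, 9.00 and 9.08 in iTreg. No array of the other groups reaches the iTreg range. It was higher by 0.63 ± 0.10 against eTreg (limma adjusted p = 0.00173), and Exosc8, a subunit of the RNA exosome, by 0.50 ± 0.09 (0.00355). Eif6, which keeps the subunits apart until 60S maturation is complete, was higher by 0.41 ± 0.11 (limma adjusted p = 0.0302), and Utp6, of the small subunit processome, by 0.47 ± 0.13 (0.0354). All 4 were also higher against e_iTreg, where the difference of Utp6 was 0.76. Against eTreg, leaving out 1 array ended the call of Eif6 in 6 of 12 fits and that of Utp6 in 5. Pno1, a 40S assembly factor, differed by 0.39 ± 0.12 from eTreg (limma adjusted p = 0.0523, not called) and was higher by 0.57 against e_iTreg. It was called against eTreg under several other settings, among them quantile normalization (0.0419), median centring (0.0422) and the filter to a mean of at least 6 (0.0326).

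Mdn1 was the only one of the 108 other pathway genes to be called lower, in both comparisons with iTreg. It encodes midasin, a very large ATPase that releases assembly factors from the 60S precursor. It read 8.63, 8.77, 8.79 and 8.76 in eTreg, 8.55, 8.38, 8.40 and 8.91 in e_iTreg, and 8.18, 7.86, 8.41 and 7.75 in iTreg. All iTreg arrays are below all eTreg arrays, and the difference was -0.69 ± 0.15 from eTreg (limma adjusted p = 0.00786) and -0.51 ± 0.15 from e_iTreg (limma adjusted p = 0.0364). The call against e_iTreg was lost in 5 of 12 fits without 1 array, that against eTreg in none. With each array centred on its median Mdn1 was not called against e_iTreg (limma adjusted p = 0.105).

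Myc itself was lower in iTreg than in eTreg, by a call that lay close to the threshold. Its values were 10.31, 10.43, 9.97 and 10.08 in eTreg, 10.31, 10.00, 10.27 and 10.05 in e_iTreg, and 9.63, 9.90, 9.94 and 9.71 in iTreg. All iTreg arrays lie below all arrays of both other groups, by a small margin from eTreg replicate 3. The difference was -0.40 ± 0.12 against eTreg (limma adjusted p = 0.0486) and -0.36 ± 0.12 against e_iTreg (limma adjusted p = 0.0674, not called). With only probe sets of a mean of at least 6 it was called lower against e_iTreg (0.0439), as with trend and robust moderation (0.0496). The call against eTreg was lost in 11 of the 12 fits without 1 array (limma adjusted p up to 0.160), with a difference between -0.48 and -0.32. These include every fit without an e_iTreg array, where the difference stayed at -0.40 and the adjusted p was 0.0512 to 0.0582. The call was also lost after quantile normalization (0.0577) and median centring (0.0659). Of the 42 genes, the 4 called in the same comparison were higher, and a link with the level of Myc was not tested.

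The genes had larger SDs among the iTreg arrays than among the eTreg arrays, a difference that was not tested. The median within-group SD of the 42 genes was 0.104 in eTreg, 0.138 in e_iTreg and 0.189 in iTreg, whereas over all probe sets with a mean of at least 6 it was 0.138, 0.159 and 0.161. Replicate 3 of iTreg was the highest of its group for 28 of the 42 genes, and replicate 4 the lowest for 21. Relative to each gene's own mean, the median of the 42 genes was 0.25 in iTreg replicate 3, and it was 0.02, -0.03 and -0.06 in replicates 1, 2 and 4.

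**Figure D5:**
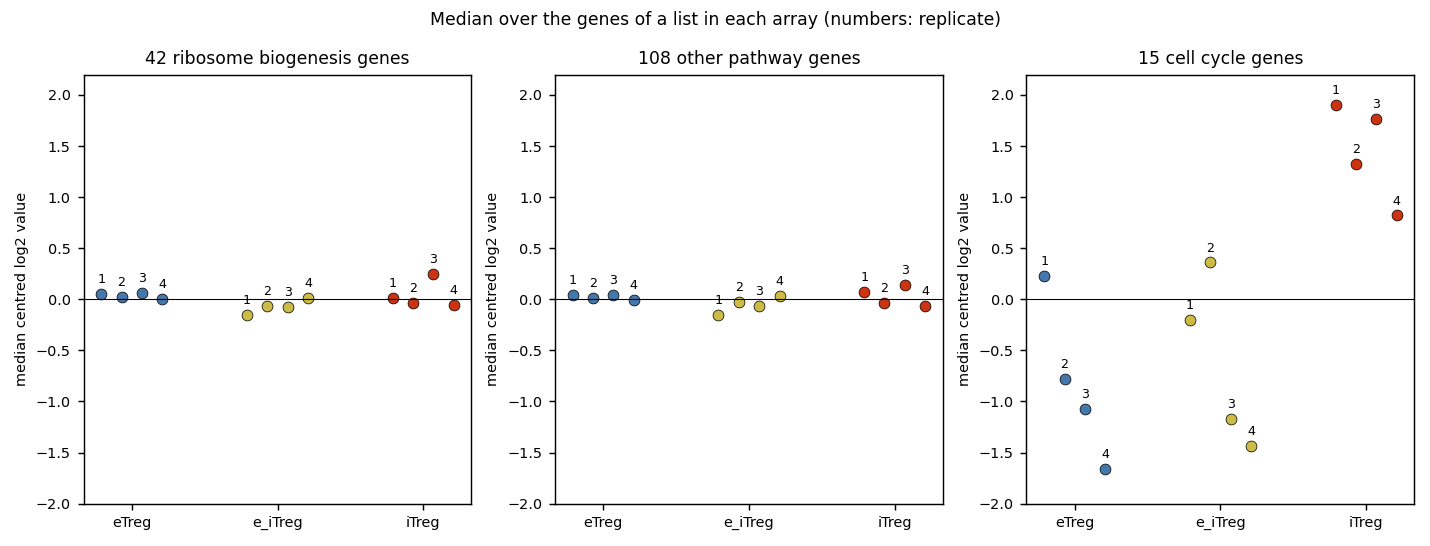
Median over the genes of a list of the log2 difference from each gene's mean over the 12 arrays, 1 point per array labelled with its replicate number, for the 42 ribosome biogenesis and nucleolar genes, the 108 other pathway genes and 15 cell cycle genes. For the 42 genes all arrays lie between -0.15 and 0.25, whereas the cell cycle genes run from -1.66 to 0.36 in eTreg and e_iTreg and from 0.82 to 1.90 in iTreg.

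Counts moved when single arrays were left out, and so did the share of all probe sets called. In iTreg minus eTreg this share was 9.99% with all arrays. There the count of 4 became 1 without eTreg replicate 4 (7.21% of all probe sets) or iTreg replicate 1 (6.88%). It became 2 without eTreg replicate 2 (6.58%) or eTreg replicate 3 (6.32%). Without iTreg replicate 3 (8.04%), 1 of the 4 stayed called and Nop14 was called lower. In iTreg minus e_iTreg the share was 11.2% with all arrays. The count of 6 became 3 without e_iTreg replicate 1 (7.49%), e_iTreg replicate 4 (6.87%), iTreg replicate 1 (7.36%) or iTreg replicate 3 (8%). Replicate 4 of iTreg had the highest mean level of myeloid markers (8.18) and of 7 plasma cell markers (8.97, against 7.33 to 7.78 in the other iTreg arrays). Without it 3 genes were called against eTreg, all of them among the 4, and the same 6 against e_iTreg. The shares of all probe sets called there were 8.08% and 8.8%. The 3 arrays with the least B cell marker signal were eTreg replicate 3, eTreg replicate 4 and e_iTreg replicate 4. Leaving them out kept only replicates 1 and 2 of eTreg and replicates 1 to 3 of e_iTreg. Then 1 gene, Bysl, was called against eTreg and 2, Bysl and Wdr12, against e_iTreg. The share of all probe sets called fell to 1.7% and 5.77%. Of the genes no longer called against eTreg, the differences were 0.40 ± 0.14 for Ebna1bp2, 0.40 ± 0.14 for Lyar and 0.36 ± 0.16 for Noc4l. With all arrays they were 0.37 ± 0.10, 0.43 ± 0.11 and 0.44 ± 0.12. A part of the B cell signal in these lost calls was not tested.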

How the data were processed

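RNA of sorted splenic Treg (2 ng per sample, per the labels' protocols) was hybridized to Affymetrix mouse gene arrays. The deposited values are log2 expression per probe set, which the authors made with oligo and RMA, per the submitters' processing notes; RMA corrects background, normalizes between arrays and summarises probes, and their versions and settings are not given in the sources used here. RMA pulls arrays towards a common distribution, so a shift shared by most genes could be hidden. The deposited values still differ between arrays in level, with array medians from 6.28 to 6.50.

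Of 41345 rows over 12 arrays, the probe annotation named 1 gene for 23521 rows, several for 1814 and none for 16010, and 23328 of the 23521 were matched to RefSeq. The arrays' genome build is not given in the sources used here. A single linear model of all 3 groups was fitted to the 23521 rows in R 4.3.3 by lmFit and eBayes of limma 3.58.1 (degrees of freedom 9 residual and 5.78 prior), two-sided, Benjamini-Hochberg over all rows, threshold 0.05 and no fold threshold. The script was tested on simulated data. Differences had a median SE of 0.112 for the 42 genes and 0.121 for all rows. The fit was repeated under 24 alternatives: quantile normalization or median centring, a filter on dim rows, 1 probe set per gene, all rows, another variance moderation, array weights, 2 groups only, a replicate block, 2 other thresholds, and without each array or the 3 arrays with least B cell marker signal.

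All members are named. Every array is given for the 2 members with the smallest p and the 1 with the largest p of each of 6 roles in iTreg minus eTreg, and for the 6 other pathway genes with the smallest p only differences unless the text turns on them. Other members given by array were chosen after their values were seen. Members, lists and tests were chosen with earlier results of these data known.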

Additional observations from a re-analysis of the deposited data

Results flagged for a closer look

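Values were examined for single arrays that stand apart within their group of 4 arrays, by the gap to the nearest array as a share of the group's range. Of 126 groups (42 genes in 3 groups), 8 had a gap above the 95% critical value of Dixon's test, and chance flags about 1 in 20 groups. In iTreg, replicate 4 was low for Nop56, at 10.07 where the other 3 arrays read 10.63 to 10.75, and for Wdr43, at 9.19 against 9.47 to 9.50. Replicate 2 of iTreg was low for Bop1, at 9.31 against 9.85 to 9.94. In e_iTreg, replicate 3 was high for Nop2, at 9.62 against 9.24 to 9.28, and low for Nolc1, at 8.90 against 8.98 to 9.00. In eTreg, replicate 4 was low for Lyar, at 9.27 against 9.39 to 9.40, and for Imp4, at 9.49 against 9.60 to 9.61. Replicate 3 of eTreg was low for Nop10, at 9.66 against 9.76 to 9.77. In Lyar, Imp4, Nop10 and Nolc1 the array that stood apart lay within 0.2 of the others on the log2 scale.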

How the results depend on the processing

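Among the 42 genes, 0 were called in e_iTreg minus eTreg under all 24 alternatives, and no gene changed sign in a comparison in which it was called. Percentages here are the share of all tested probe sets called under the same setting. In iTreg minus eTreg (9.99% in the main fit) the count of 4 became 2 with all rows of the table tested (5.04%). It became 2 with only the 2 groups compared (8.71%) and 8 at an adjusted p of 0.1 (6 higher, 2 lower, 13.5%). With a 1.5-fold minimum it was 0 (4.63%), and without the 3 arrays of least B cell marker signal 1 (1.7%). Without 1 array each it ran from 1 to 5, and the share from 6.32% to 10.4%. In iTreg minus e_iTreg (11.2% in the main fit) the count of 6 became 3 with all rows tested (5.87%). It was 0 with a 1.5-fold minimum (4.77%) and 2 without the 3 arrays (5.77%). Without 1 array each it ran from 3 to 7, and the share from 6.87% to 12.1%. The count of 5 other pathway genes against eTreg became 9 with a mean of at least 6 (18%) and 3 with all rows (5.04%). It was 10 with array weights (11.8%), 8 with only the 2 groups (8.71%) and 10 at 0.1 (13.5%). With the fold minimum it was 2 (4.63%), and without the 3 arrays 0 (1.7%). It ran from 3 (without eTreg replicate 2, eTreg replicate 3 or iTreg replicate 1) to 9 (without e_iTreg replicate 3). The count of 10 against e_iTreg became 2 with the fold minimum (4.77%) and 6 without the 3 arrays (5.77%). Without 1 array each it ran from 6 (without iTreg replicate 1, 7.36%) to 13 (without iTreg replicate 2, 11.3%). The cause of these moves was not tested. The median difference of the 42 genes ran from -0.07 to 0.03, 0.07 to 0.19 and -0.13 to -0.09 without 1 array each, in iTreg minus eTreg, iTreg minus e_iTreg and e_iTreg minus eTreg.

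Replicate numbers did not clearly pair the samples. Of 12 pairs with the same number 3 had a correlation of deviations above 0.1 (range -0.15 to 0.24), and 3 correlated best with their own number. Between e_iTreg and eTreg the same-number correlations were all positive, from 0.07 to 0.24. In the comparisons with iTreg they ran from -0.15 to 0.12. With the replicate block 3, 6 and 0 of the 42 genes were called in iTreg minus eTreg, iTreg minus e_iTreg and e_iTreg minus eTreg, and 4, 7 and 0 of the other pathway genes. Of all probe sets 9.46%, 10.2% and 0% were called with this block. All 42 genes lay well above the dimmest rows, the lowest mean being 7.31, and the number of arrays sets the precision.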

Other observations

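Fbl, which encodes fibrillarin, shares its only probe set with Tulp4, and this row was not tested. It read 11.27, 11.10, 10.95 and 10.92 in eTreg, 10.85, 11.05, 10.74 and 11.06 in e_iTreg, and 11.04, 11.14, 11.13 and 11.03 in iTreg, and the iTreg arrays lie within the range of the eTreg arrays.

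Of the 42 genes, 4 had more than 1 probe set of their own (Nop56, Rrs1, Npm1 and Ddx21), and these did not always give the same difference. For Ddx21 the brighter probe set gave 0.22 in iTreg minus eTreg and the dimmer -0.05, neither called. For Nop56 the brightest gave -0.12 and the other 2 gave -0.38 (limma adjusted p = 0.0809) and -0.36 (0.609), none called. A further row, named for both Nop56 and Snord57, a small nucleolar RNA, was not tested and differed by -0.55.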
